A study of Homo sapiens with 4 samples.

Results

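The replication-dependent histone genes were taken as the rows of the expression table whose symbol began with HIST1H, HIST2H, HIST3H or HIST4H and whose value was above 0 in at least 2 of the 4 libraries. Of 25066 genes in the table, 70 rows had such a symbol and 60 of them met the rule, against 16945 genes of any kind that did so. The members were 5 H1, 16 H2A, 15 H2B, 10 H3 and 14 H4 genes. Of the 10 rows left out, 8 were at 0 in every library (HIST1H1A, HIST1H2AA, HIST1H2BA, HIST1H2BH, HIST1H3F, HIST1H4G, HIST3H2BB and HIST3H3) and 2, HIST2H3A and HIST2H3C, were above 0 in 1 library only.

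RNA came from NUDUL1, a human diffuse large B cell lymphoma line of the germinal center B cell-like type that carried doxycycline-inducible Cas9 and the transduced Gα13-coupled receptor Tbxa2r. Cells with a control sgRNA and cells with a GNA13 sgRNA were all exposed for 24 h to 10 nM U46619, a stable agonist of that receptor, and 2 libraries were made from each genotype. The design held 1 sgRNA per genotype and no untreated cells, so the only contrast was between genotypes under U46619. Nothing in the labels says that the 2 libraries of a genotype came from separate cultures, so p values measure the spread between these libraries only.

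Replication-dependent histone genes encode the core histones H2A, H2B, H3 and H4 and the linker histone H1, which package newly copied DNA, and their transcripts accumulate mainly in S phase. The genes lie in clusters, and their mature mRNAs usually end in a short stem-loop that is bound by the stem-loop binding protein SLBP in place of a poly(A) tail. Some of these genes also give longer polyadenylated transcripts that read past the stem-loop. The libraries here were made with a kit that selects poly(A) RNA, so the values measure the histone RNA that such a kit retained and not the whole histone mRNA pool.

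The stem-loop is shown for members whose results are described below, with the bases of the stem-loop in capitals and 5 bases on either side in lower case. All sequences are in the sense of the gene and come from GRCh37, at the gene positions of GENCODE v44lift37.
HIST1H1C (chr6:26055972-26055987, minus strand): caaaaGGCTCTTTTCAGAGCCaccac
HIST1H2AC (chr6:26124897-26124912, plus strand): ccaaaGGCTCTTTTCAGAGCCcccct
HIST1H2AE (chr6:26217645-26217660, plus strand): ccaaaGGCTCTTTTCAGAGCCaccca
HIST1H2BC (chr6:26123700-26123715, minus strand): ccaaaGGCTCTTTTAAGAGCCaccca
HIST1H2BD (chr6:26158815-26158830, plus strand): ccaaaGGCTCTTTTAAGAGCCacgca
HIST1H2BK (chr6:27114145-27114160, minus strand): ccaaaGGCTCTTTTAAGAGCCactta
HIST1H2BL (chr6:27775262-27775277, minus strand): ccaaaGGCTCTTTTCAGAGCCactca
HIST1H3C (chr6:26046077-26046092, plus strand): gaaaaGGCTCTTTTCAGAGCCactca
HIST1H4D (chr6:26188943-26188958, minus strand): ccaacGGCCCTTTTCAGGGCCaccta
HIST1H4I (chr6:27107433-27107448, plus strand): aaaaaGGCCCTTTTTAGGGCCcctaa
The positions are those of the capitals, all of them downstream of the stop codon and within the annotated gene. The letters searched were GGNNCTTNTNANNNCC with 6 paired stem positions, on the sense strand, within 150 bases after the stop codon. The match was found in 65 of 65 HIST rows with a GENCODE gene model, which include 55 of the 60 members, and in 2 of 18849 other protein-coding genes searched in the same window (0.011%). The form in HIST1H2AC, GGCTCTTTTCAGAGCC, was the most common, in 38 of the 65 genes. It stood in the genes lower in the libraries labelled GNA13-deficient, HIST1H2AC and HIST1H2AE, and also in the higher genes HIST1H2BL and HIST1H3C. HIST1H2BC, HIST1H2BD and HIST1H2BK shared another form, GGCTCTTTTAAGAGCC, found in 9 genes. H4 genes such as HIST1H4D carried a stem that starts with GGCC.

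Depth was similar in the 4 libraries, at 29209544 and 31537955 mapped reads in the control-labelled libraries and 30141459 and 29685942 in those with the GNA13-deficient label. The GNA13 transcript was at 12.46 and 12.45 on the normalized log2 scale under the control guide and at 13.10 and 13.11 under the GNA13 guide, a difference of 0.65 (SE 0.05, adjusted p = 0.00214 by limma). The transcript was higher, not lower, under the guide against it, and the libraries are named by their labels throughout. RNA level does not show whether Gα13 protein was lost, and protein was not measured in these libraries. In separate assays of the paper, NUDUL1 cells with a GNA13 guide outcompeted untransduced cells under U46619. All 6 B cell markers looked for were above 0 in every library, and the T cell markers CD2, CD3D and CD3E were at 0 in all, while the fourth T cell marker, CD8A, had 5 and 5 reads under the control label and 0 and 0 under the other. The summed reads of 5 myeloid markers were 224 to 246 in the control-labelled libraries and 25 to 28 in the others, and the part of these transcripts in the histone results was not tested. By DNA content in another assay, the paper reports fewer NUDUL1 cells in S-G2 under U46619, an effect that depended on Gα13. The part of this in the histone results was not tested. Bulk RNA cannot tell a difference in the share of cells in S phase from a difference in histone RNA per cell.

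Histone RNA was low in these libraries and uneven between members. The values are log2 of normalized reads, and since low values step in whole reads, the reads behind each value were recovered. The median member had 7 reads in a library, 44 members were above 0 in all 4 libraries, and 5 members had no more than 3 reads in any. Only 10 members averaged 32 reads or more, and only 3 (HIST1H2BK, HIST1H1C and HIST1H2BD) reached the median level of all genes tested. HIST1H2BK alone held 57.8% of the members' normalized reads in the control-labelled libraries and 55.8% in those with the GNA13-deficient label. Per kilobase of the longest annotated transcript, the mean over the 4 libraries was 5599 normalized reads for HIST1H2BK, 973 for HIST1H1C, 411 for HIST1H2BD, 180 for HIST1H2AC and 109.5 for HIST1H2AG, and the lengths come from the annotation, not from the transcripts in these cells.

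**Figure D1:**
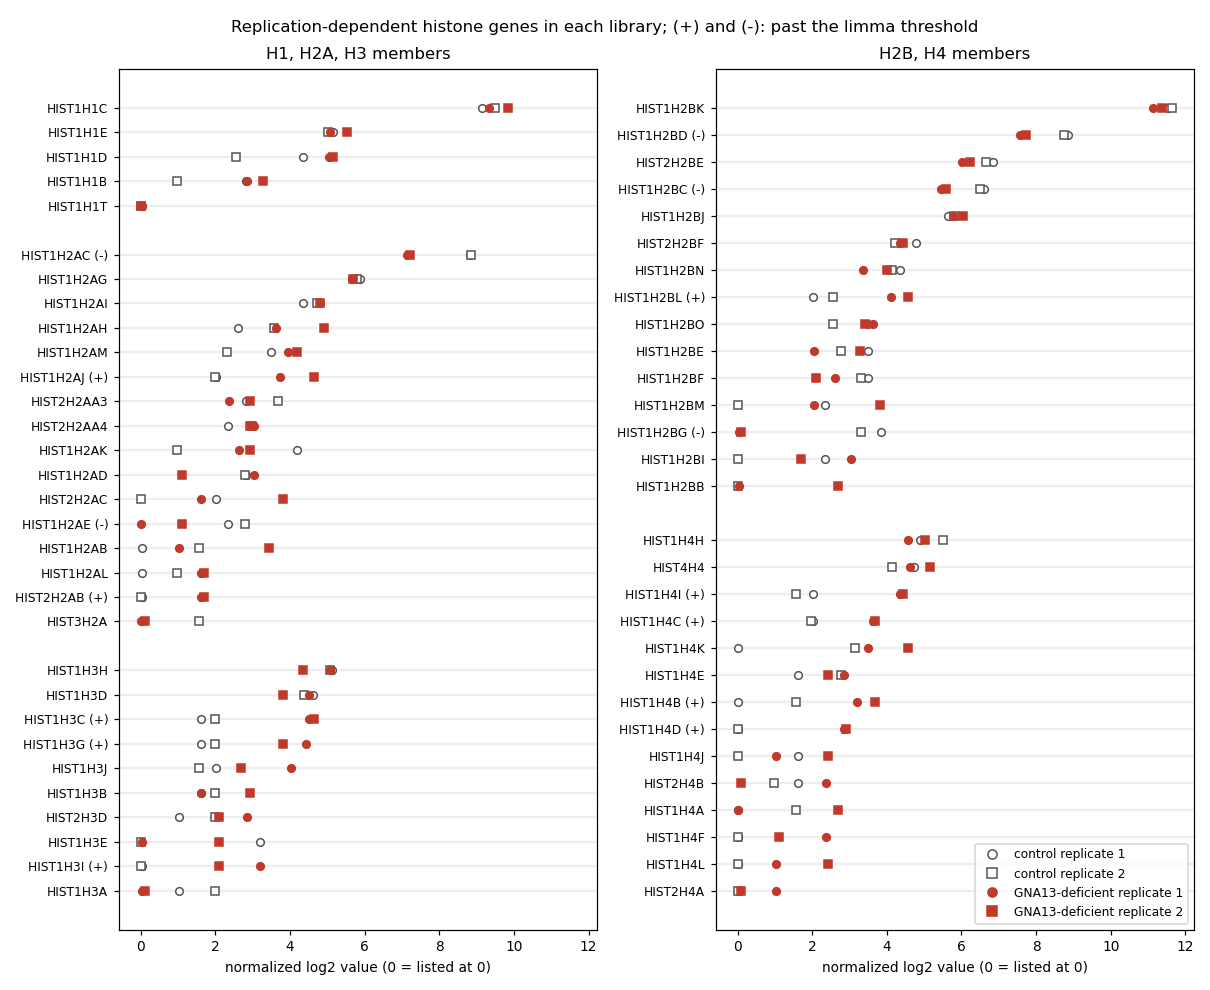
Normalized log2 value of each of the 60 members in each library, by histone class and in order of mean level; open symbols are the 2 libraries labelled control, filled symbols the 2 labelled GNA13-deficient, and a value listed as 0 sits at 0. The 5 genes marked (-) have both filled symbols to the left of both open ones, and the 10 genes marked (+) have them to the right, all of them under 5 on the log2 scale.

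Histone genes that passed the test with more RNA under the GNA13-deficient label were all scarce. Those with less included HIST1H2AC and HIST1H2BD, abundant among the members, and also the scarce HIST1H2AE and HIST1H2BG. By limma, 10 of the 60 members (16.7%) were higher and 5 (8.33%) lower at an adjusted p under 0.05, where 13.1% of all genes tested were higher and 16.6% lower (29.7% in either direction). The share of members that were higher was thus near that of all genes, and the share that were lower was below it. Of the 57 members below the median level of all genes, 17.5% were higher and 7.02% lower, where 4.92% and 15.6% of all genes below that level were, a range that reaches far above the levels of the higher members, and the difference was not tested. Of the 10 higher members, 7 were among the 24 H3 and H4 genes, and all 10 had at most 6 reads in a library labelled control. The median difference of the members was 0.46 on the log2 scale, or 0.36 with values under 3 reads set to 3 reads, beside -0.02 for all genes tested, and 39 members were above 0 and 21 below. It was 0.238 without GNA13-deficient replicate 2, 0.19 with a pseudocount of 10, 0.856 with quantile normalization and -0.342 over the 3 members at or above the median level, so its size was not firm. Both libraries of one genotype lay above both of the other in 23 members in the higher direction and in 11 in the lower one, where 31.3% and 34.0% of all genes did so. That the 4 genes HIST1H4D, HIST1H4F, HIST1H4L and HIST2H4A entered through the libraries labelled GNA13-deficient alone means that they could only be higher there. Without them 9 of 56 members were higher and 5 lower, with a median of 0.38. With no filter on low values 2 members (HIST1H4D and HIST2H2AB) were higher and 3 lower. With 2 libraries against 2, leaving out any 1 of them left no gene past the threshold, histone or other. Unadjusted p values by limma were under 0.05 in 22 of the 60 members and in 7128 of the 16945 genes tested.

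**Figure D2:**
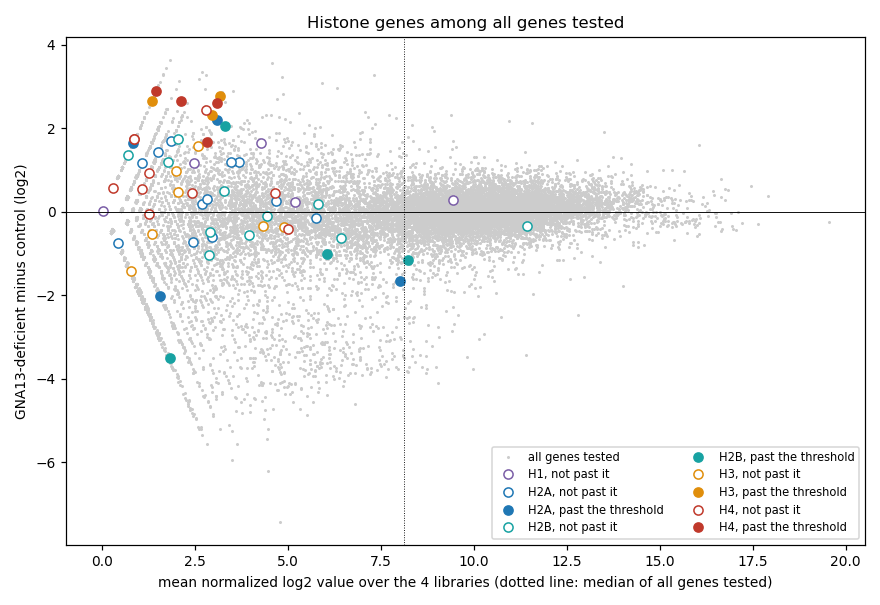
Difference between genotypes (libraries labelled GNA13-deficient minus control, log2) against mean level for the 16945 genes tested (grey) and the 60 histone members (coloured by class, filled where the adjusted p was under 0.05). The 10 filled points above 0 sit at mean levels of 0.83 to 3.32, and 3 of the 5 below 0 (HIST1H2BC, HIST1H2AC and HIST1H2BD) sit to their right, at 6.04 to 8.23.

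The linker histones, which bind DNA between nucleosomes, did not pass the test in any of 5 members, where 29.7% of all genes tested passed. HIST1H1C was the second most abundant member, at 9.15 and 9.49 in the control-labelled libraries and 9.33 and 9.84 in those with the GNA13-deficient label. The genotypes overlapped, with a difference of 0.27 (SE 0.21, adjusted p = 0.396 by limma), which passed with the replicate number as a block (adjusted p = 0.0427 by limma). HIST1H1E was at 5.15 and 5.02 against 5.08 and 5.53, also with overlap. HIST1H1D had 20 and 6 reads in the control-labelled libraries and 32 and 33 in the others, and its difference of 1.64 had an SE of 0.65 (adjusted p = 0.126 by limma), since the pair labelled control lay far apart. HIST1H1B, at 2 to 9 reads, had a difference of 1.16 (SE 0.71). The germ cell variant HIST1H1T had at most 1 read in a library.

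Among the H2A genes, whose product pairs with H2B in the nucleosome, the abundant HIST1H2AC was lower, as was the scarce HIST1H2AE, and 2 scarce genes were higher. HIST1H2AC (current symbol H2AC6), on chromosome 6 at 26124373 to 26139344 of GRCh37, was at 8.83 and 8.84 in the control-labelled libraries and at 7.15 and 7.21 in those with the GNA13-deficient label. These were 448 and 464 reads against 138 and 138, so the genotypes were far apart and replicates close together. The difference was -1.65 (SE 0.10, adjusted p = 0.00155 by limma), a ratio of 0.318 of normalized reads (95% interval 0.277 to 0.364). Intervals on reads cover counting error only. The next H2A genes by level did not pass the threshold. HIST1H2AG had 58 and 56 reads against 49 and 48 (difference -0.16, SE 0.22), and HIST1H2AI had 20 and 27 against 27 and 26 (0.26, SE 0.31). HIST1H2AJ rose from 4 and 4 reads to 13 and 23, a difference of 2.18 (SE 0.45, adjusted p = 0.0237 by limma). Of the 50-base words of the HIST1H2AJ transcript, 66.3% also occurred in other histone transcripts, so its reads and those of HIST1H2AI (63.5%) and HIST1H2AM (67.8%) may be shared between copies. HIST1H2AE fell from 5 and 7 reads to 0 and 2, a ratio of 0.175 (95% interval 0.0190 to 0.786) with an adjusted p of 0.0436 by limma, which held under 2 of 11 other settings. HIST2H2AB was called higher at 1 and 0 reads against 3 and 3, a ratio of 6.30 whose interval of 0.764 to 289.7 spans 1, and kept its call under 5 of 11 settings. In control replicate 2 a gene with 1 read is also listed at 0, so a 0 there can be 1 read. The other 10 H2A members did not pass the threshold, with differences of -0.74 to 1.70. The class thus had 2 higher and 2 lower members of 16, beside 13.1% and 16.6% of all genes tested.

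The H2B genes held most of the histone reads, and HIST1H2BD, HIST1H2BC and HIST1H2BG were lower in the libraries labelled GNA13-deficient. HIST1H2BK (H2BC12), the highest of all members, was at 11.54 and 11.65 in the control-labelled libraries and at 11.14 and 11.37 in the others. The genotypes did not overlap, but its difference of -0.34 (SE 0.09) missed the threshold with an adjusted p of 0.0522 by limma. It passed under 8 other settings and missed under 4, among them median centring, with a difference of -0.134 and an adjusted p of 0.41 by limma. HIST1H2BD (H2BC5) had 456 and 440 reads in the control-labelled libraries and 185 and 197 in those with the GNA13-deficient label. Its difference was -1.16 (SE 0.11, adjusted p = 0.00322 by limma), and it passed under all 12 other settings of the full data. HIST1H2BC (H2BC4) had 96 and 92 reads against 43 and 45, a difference of -1.02 (SE 0.21, adjusted p = 0.0232 by limma), which was -0.606 with quantile normalization (adjusted p = 0.0907 by limma) and also missed the threshold with no filter. HIST2H2BE, of the HIST2 cluster on chromosome 1, lay in the same direction without overlap, at 113 and 103 reads against 63 and 70, with a difference of -0.63 (SE 0.20, adjusted p = 0.0744 by limma). The largest fall of any member was in HIST1H2BG (H2BC8), from 14 and 10 reads to 1 and 1, a ratio of 0.0875 of normalized reads (95% interval 0.0100 to 0.352, adjusted p = 0.00474 by limma). Against these, HIST1H2BL rose from 4 and 6 reads to 17 and 22 (difference 2.05, SE 0.41, adjusted p = 0.0216 by limma). HIST1H2BJ, at 49 and 57 reads against 53 and 61, was nearly level (0.18, SE 0.24). The class therefore had 1 higher and 3 lower members of 15, beside 13.1% and 16.6% of all genes tested. Its median was -0.34, the only class median below 0.

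The H3 genes, whose product forms the core of the nucleosome with H4, had 3 higher and no lower members of 10. Among all genes tested 13.1% were higher and 16.6% lower, and the class was not tested against these shares. HIST1H3C (H3C3) had 3 and 4 reads in the control-labelled libraries and 22 and 23 in those with the GNA13-deficient label, a ratio of 6.75 (95% interval 3.02 to 17.7) and a difference of 2.77 (SE 0.37, adjusted p = 0.00723 by limma). HIST1H3G had 3 and 4 reads against 21 and 13, with a difference of 2.32 (SE 0.42, adjusted p = 0.0165 by limma). For HIST1H3I the reads were 1 and 0 against 9 and 4, a ratio of 13.6 with a wide interval of 2.05 to 580 (adjusted p = 0.0185 by limma). That call was lost with no filter, with voom and with values under 3 reads set to 3 reads, where its difference was 1.07 in place of 2.64. None of the 50-base words of these 3 transcripts occurred in another histone transcript. The H3 genes with the highest levels behaved otherwise. HIST1H3H had 34 and 34 reads against 33 and 19 (difference -0.37, SE 0.36) and HIST1H3D 24 and 21 against 22 and 13 (-0.34, SE 0.39), both with overlap between genotypes. The other 5 H3 members ranged from -1.43 in HIST1H3A to 1.57 in HIST1H3J and did not pass.

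The H4 genes had 4 higher and no lower members of 14, and a class median of 1.29. The shares of all genes tested were 13.1% higher and 16.6% lower, and the class was not tested against them. With values under 3 reads set to 3 reads the median was 0.44, below that of H3 (0.58), and without the 4 H4 genes that entered through the libraries labelled GNA13-deficient alone 3 of 10 were higher and the median was 0.74. HIST1H4I (H4C9) had 4 and 3 reads in the control-labelled libraries and 20 and 20 in those with the GNA13-deficient label, with a difference of 2.60 (SE 0.38, adjusted p = 0.0091 by limma). HIST1H4D (H4C4) was listed at 0 in both libraries labelled control and had 7 and 7 reads in the others, which made it at least 2.45-fold higher when control was set to 3 reads in each library (adjusted p = 0.00591 by limma). HIST1H4B had 1 and 3 reads against 9 and 12, a ratio of 5.51 (95% interval 1.86 to 22.1, adjusted p = 0.0341 by limma), a call lost with no filter (0.18) and with no variance trend (0.0854). HIST1H4C had 4 and 4 reads against 12 and 12, a difference of 1.66 (SE 0.35, adjusted p = 0.026 by limma), which was lost with no filter and with voom (0.0634). Here too the highest members of the class stayed within their spread. HIST1H4H had 29 and 46 reads against 23 and 30 (difference -0.41, SE 0.36), and HIST4H4, the single gene on chromosome 12, had 26 and 18 against 24 and 33 (0.45, SE 0.38). HIST1H4K, HIST1H4J, HIST2H4A and HIST2H4B had from 91.1% to 100% of their 50-base words in other histone transcripts, so their reads cannot be assigned with certainty.

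Summed over members, H2A and H2B reads were fewer and H3 and H4 reads more numerous in the libraries labelled GNA13-deficient, and the H2A fall was not seen without HIST1H2AC. In order of control replicates 1 and 2 and GNA13-deficient replicates 1 and 2, H2A members summed to 607.5, 603.2, 299.6 and 360.3 normalized reads, a ratio of 0.545 between genotypes. The H2B sums were 3822, 3962, 2690 and 3155, a ratio of 0.751. For H3 they were 86.5, 76.7, 138.5 and 101.1 (ratio 1.47), and for H4 76.3, 93.5, 132.4 and 173.2 (ratio 1.80). In these 4 classes no library of one genotype overlapped the other, while the H1 sums of 630.9, 759.6, 718.3 and 1008 did overlap. All 60 members together gave 5223, 5495, 3979 and 4797 normalized reads, a ratio of 0.819. An exact two-sided permutation test of 2 libraries against 2 has 6 splits and cannot go below p = 0.333, the value these 4 classes and the total gave. Without HIST1H2AC the other 15 H2A members summed to 151.6, 146.6, 158.0 and 211.9, in the opposite direction with a ratio of 1.24. Without HIST1H2BK, HIST1H2BD and HIST1H2BC the H2B sums of 275.8, 232.2, 204.2 and 251.7 overlapped between genotypes. Without the 4 genes that entered through 1 genotype alone the H4 ratio was 1.61. These left-out members were chosen after the values were seen. The totals follow the abundant members: the 6 highest members had 90.4% of the reads in the control-labelled libraries and 84.1% in the others. The other 54 members summed to 539.3 and 488.0 normalized reads against 643.4 and 754.0, a ratio of 1.36, so the direction of the total depended on which members were counted.

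**Figure D3:**
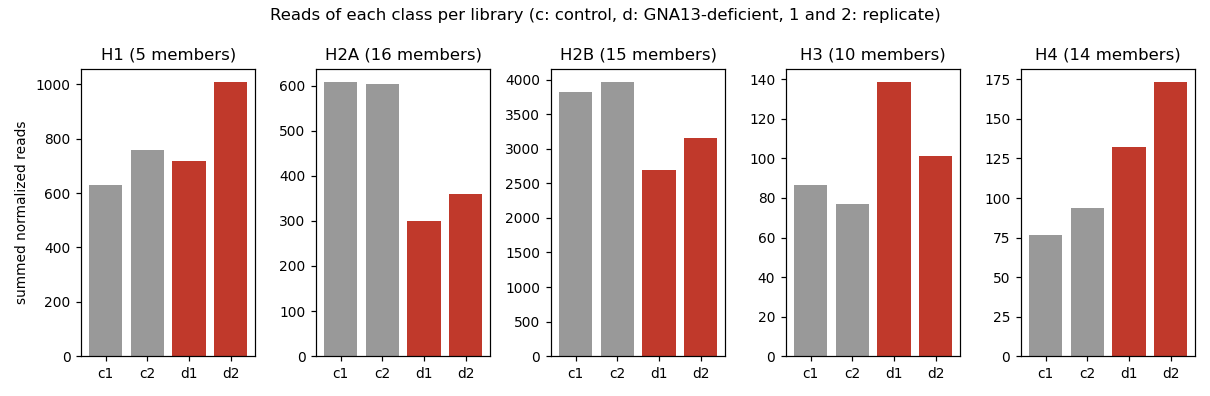
Normalized reads summed over the members of each histone class in each library (c1, c2: control replicates 1 and 2, d1, d2: GNA13-deficient replicates 1 and 2), with axes that start at 0 and differ between classes. H2A and H2B bars are lower in both red libraries, H3 and H4 bars are higher in both, and H1 bars overlap.

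Members were also compared by level and by the annotated structure of their transcripts. Of the 10 members with a mean of 32 reads or more, none was higher and 3 were lower (median -0.37), and of the 50 with fewer reads 10 were higher and 2 lower (median 0.95, or 0.44 with values under 3 reads set to 3 reads). In GENCODE, 14 of the 55 members with a gene model had a longest transcript of several exons, which is unusual for histone genes. None of these 14 was higher, 3 (HIST1H2AC, HIST1H2BC and HIST1H2BD) were lower, and their median was -0.44. Of the 41 members with a single exon, 9 were higher and 1 was lower, with a median of 1.16, or 0.47 with values under 3 reads set to 3 reads. Summed reads of the members with several exons were 1200 and 1150 against 537.7 and 603.4, a ratio of 0.486, and those of the single-exon members 3990 and 4310 against 3415 and 4166, which overlapped. Without the 3 lower genes, the other 11 members with several exons summed to 182.1 and 170.2 against 162.1 and 194.7 (ratio 1.01). The 3 were left out because they fell, so this remainder was bound to fall less. Of all 14 members with several exons, 10 had a difference below 0. Splitting at 1000 bases of longest transcript gave a similar picture, with none higher and 2 lower of 12 longer members (median -0.50) and 9 higher and 2 lower of 43 shorter ones. These splits share members with the split by reads, and the deposited values do not show which transcript of a gene was read. The splits by reads and by exons were chosen after the values were seen. Of all genes below the median level, where 57 of the 60 members lay, 4.92% were higher and 15.6% lower. At or above it 21.3% were higher and 17.7% lower. Shares of all genes on either side of 32 reads, or by exons or length, were not computed.

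H2A and H2B genes often stand head to head, so that they are read outward from neighbouring starts, and the members of such pairs were compared. Pairs were H2A and H2B genes on opposite strands with starts within 1000 bases, and 12 were found. The starts were 170 to 251 bases apart in the 10 pairs with both positions in GRCh37. Both genes were members in 10 pairs, of which 6 had differences of the same sign, 3 in each direction. The rest had opposite signs. Agreement in sign was not tested, and 48.1% of all genes tested had a difference above 0. HIST1H2AC and HIST1H2BC were both past the threshold and lower, as were HIST1H2AE and HIST1H2BG, though HIST1H2AE held its call under 2 of 11 other settings. HIST1H2AD and HIST1H2BF were both below 0 without passing, at -0.74 and -1.03. In the pair HIST1H2AI and HIST1H2BL only the H2B gene passed (0.26 and 2.05), and in HIST1H2AJ and HIST1H2BM only the H2A gene (2.18 and 1.75), and whether the partners differed from each other was not tested. The abundant HIST1H2BK, at -0.34, faced the scarce HIST1H2AH, at 1.18 with an SE of 0.61.

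**Figure D4:**
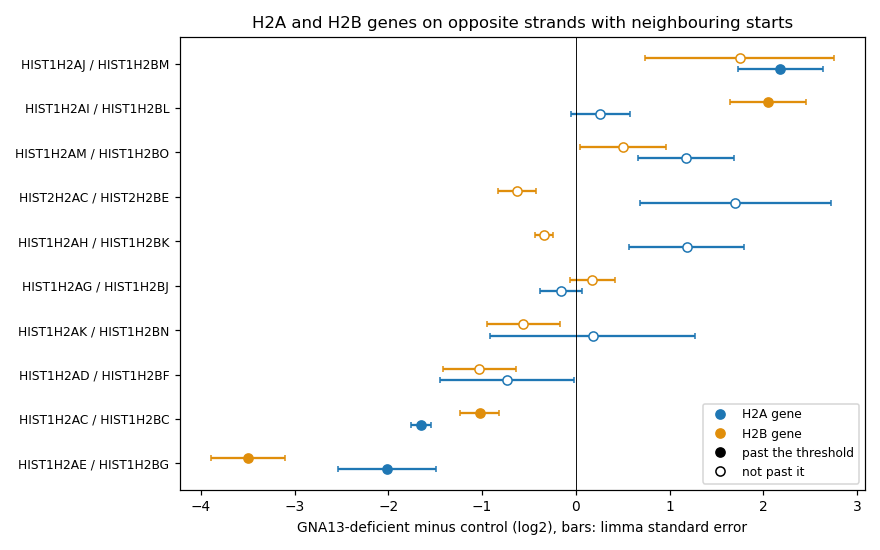
Difference between genotypes (libraries labelled GNA13-deficient minus control, log2) of the H2A and the H2B gene in the 10 pairs in which both were members, with limma standard errors and filled points where the adjusted p was under 0.05. The lowest 3 pairs have both genes below 0, the uppermost 3 have both above 0, and in the 4 between them the genes lie on opposite sides.

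The fallen genes with a position all lay on chromosome 6. HIST1H2BC, HIST1H2AC, HIST1H2BD and HIST1H2AE spanned 26086545 to 26217665 of GRCh37, or 131 kb of the 2138 kb over which the HIST1 genes with a position were spread. The stretch held 12 members with a position, 4 lower, 2 higher and 6 not past the threshold, where 16.6% of all genes tested were lower and 13.1% higher. Its ends were set by the fallen genes themselves, so its count of lower members is not a separate result. HIST1H2AE, which set the far end, held its call under 2 of 11 other settings. Whether the fallen genes lay closer than the spacing of histone genes would give was not tested. HIST1H2BG, which was lower, and HIST1H2BF, which did not pass, had no position here and were not counted. Each faces a gene of the stretch, HIST1H2AE and HIST1H2AD. The higher ones were HIST1H4C and HIST1H4D, and HIST1H4C (26104161 to 26104565, plus strand) lay within the annotated span of HIST1H2BC on the other strand. Exons of HIST1H2BC also overlapped those of HFE on the other strand, and whether the authors counted reads by strand is not given in the sources used here. The 8 higher members with a position on chromosome 6 were spread over 1795 kb, from HIST1H3C to HIST1H3I.

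Promoter sequences are shown for members that moved in each direction, because H2A and H2B promoters are known to share an octamer, ATTTGCAT, that is bound by Oct1. They come from RefSeq (GRCh38.p14) and hold 300 bases from upstream of the start to just past it, in the sense of the gene. Capitals mark the octamer ATTTGCAT, the TATA box TATAAA and the CCAAT box CCAAT on either strand.
HIST1H2AC, lower (chr6:26123922-26124221, plus strand): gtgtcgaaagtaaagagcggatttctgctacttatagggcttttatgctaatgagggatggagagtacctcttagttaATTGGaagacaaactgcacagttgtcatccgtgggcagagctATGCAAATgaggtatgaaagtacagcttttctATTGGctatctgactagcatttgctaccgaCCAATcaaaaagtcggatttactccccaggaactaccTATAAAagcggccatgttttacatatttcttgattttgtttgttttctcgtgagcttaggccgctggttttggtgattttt
HIST1H2BG, lower (chr6:26216639-26216938, minus strand): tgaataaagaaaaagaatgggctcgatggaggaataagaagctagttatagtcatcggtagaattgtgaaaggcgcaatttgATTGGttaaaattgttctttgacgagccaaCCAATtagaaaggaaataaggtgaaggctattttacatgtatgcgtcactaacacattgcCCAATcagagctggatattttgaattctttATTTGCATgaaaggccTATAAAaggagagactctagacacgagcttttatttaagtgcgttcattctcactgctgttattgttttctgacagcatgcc
HIST1H3C, higher (chr6:26045134-26045433, plus strand): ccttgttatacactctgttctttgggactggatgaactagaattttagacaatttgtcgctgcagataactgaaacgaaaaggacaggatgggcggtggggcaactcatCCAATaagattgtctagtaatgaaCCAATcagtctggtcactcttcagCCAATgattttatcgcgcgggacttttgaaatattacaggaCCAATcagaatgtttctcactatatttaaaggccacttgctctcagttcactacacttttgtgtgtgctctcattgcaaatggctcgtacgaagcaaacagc
HIST1H4D, higher (chr6:26189063-26189362, minus strand): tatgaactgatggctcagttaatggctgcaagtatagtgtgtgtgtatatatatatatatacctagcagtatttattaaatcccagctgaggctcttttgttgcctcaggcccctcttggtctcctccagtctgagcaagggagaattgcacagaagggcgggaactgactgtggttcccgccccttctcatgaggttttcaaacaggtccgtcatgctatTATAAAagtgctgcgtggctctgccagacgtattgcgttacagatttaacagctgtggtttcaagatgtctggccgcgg
The table of promoters held 65 of the 70 HIST rows. The octamer was found in 11 of 16 H2A and 14 of 18 H2B promoters, in 1 of 12 H3 promoters (HIST1H3D, whose entry is the same 300 bases as that of HIST1H2AD) and in no H1 or H4 promoter, against 1.8% of all 27305 promoters in the table. Head-to-head genes share most of the 300 bases, so their matches are not separate. CCAAT was found in every H1, H2A, H2B and H3 promoter and in 3 of 13 H4 promoters (35.7% of all promoters), and TATAAA in 66.2% of the histone promoters (12.0% of all). Within H2A and H2B, of 22 members with the octamer 2 were higher and 4 lower, and of 8 without it 1 was higher and 1 lower, with medians of 0.03 and -0.19. Members that rose and members that fell thus both occurred with and without the octamer. A match gives the letters only and shows no binding.

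Of 24 tested genes of histone transcription, 3′ end processing and decay, 8 were higher and 3 lower, where 21.3% of all genes at or above the median level were higher and 17.7% lower. SLBP, which binds the stem-loop, was at 11.96 and 11.98 in the control-labelled libraries and 12.42 and 12.50 in the others, a difference of 0.49 (SE 0.06, adjusted p = 0.00486 by limma). NPAT, the S phase coactivator of histone genes, was at 10.13 and 9.89 against 9.40 and 9.14, a difference of -0.74 (SE 0.13, adjusted p = 0.0155 by limma). CDK2, whose complex with cyclin E phosphorylates NPAT, was higher by 0.74, and NCBP2, the small subunit of the nuclear cap-binding complex, lower, with a difference of -0.68. HINFP, a transcription factor of H4 genes, was also lower (-0.66, adjusted p = 0.0114 by limma).

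S phase genes, whose transcripts peak when DNA is copied, were higher almost throughout. Of 24 S phase genes tested, 23 passed the threshold and were higher, with a median difference of 0.78. POLA1, the catalytic subunit of DNA polymerase alpha, was at 11.90 and 11.73 against 12.93 and 12.89, a difference of 1.10 (SE 0.08, adjusted p = 0.00171 by limma), and RRM2, a subunit of ribonucleotide reductase, was higher by 1.09. Of 19 histone chaperones tested, which carry histones to DNA, 10 were higher and 1 was lower, beside the same 21.3% and 17.7% of all genes at or above the median level, with CHAF1A, a subunit of the replication-coupled assembly factor, higher by 0.90 and ASF1B by 0.82.

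Histone variants whose genes lie outside the clusters had 4 higher and 2 lower genes of 11 tested. Of all genes at or above the median level 21.3% were higher and 17.7% lower, and of those below it 4.92% and 15.6%. H2AFZ, which encodes H2A.Z, was at 14.08 and 14.29 in the control-labelled libraries and 15.07 and 15.25 in the others, a difference of 0.98 (SE 0.11, adjusted p = 0.00477 by limma). H3F3B, one of the genes for H3.3, was higher by 0.55, and H2AFY2, a macroH2A gene, fell from 6 and 11 reads to 2 and 2 (adjusted p = 0.031 by limma), a call lost under 5 other settings. Per library, H2AFZ alone held 16973 to 36127 reads, far above the sum of all 60 members. The kit selects poly(A) RNA and mature mRNAs of the members usually lack the tail, so these reads do not compare whole mRNA pools.

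Other RNAs without a poly(A) tail, which a poly(A) kit also retains only in small part, mostly did not pass the test. Of 20 such RNAs tested, 1 was higher and 2 were lower, with a median of -0.03. All lay below the median level of all genes, where 4.92% of genes were higher and 15.6% lower. SNORD17, a small nucleolar RNA, had 66 and 54 reads against 113 and 109 and was the higher of these. RN7SL1 and RN7SL2, the RNA of the signal recognition particle, had 237 and 240 reads against 128 and 129, and 500 and 347 against 193 and 154. Carry-over of RNA without a poly(A) tail into the libraries was not tested beyond this list.

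**Figure D5:**
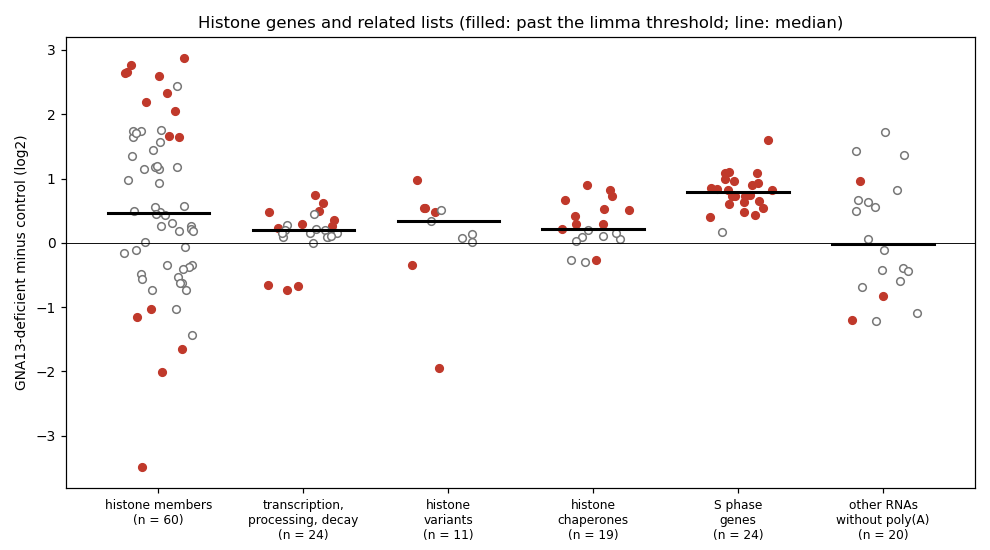
Difference between genotypes (libraries labelled GNA13-deficient minus control, log2) of each gene in the histone members and in 5 related lists, with filled points where the adjusted p was under 0.05 and a bar at each median. The 24 S phase genes all lie above 0 around a median of 0.78, while the 60 histone members spread from -3.49 to 2.88 around 0.46.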

How the data were processed

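RNA was sequenced from NUDUL1 cells in 4 libraries. Per the paper, STAR was used by the authors for alignment to hg19 and normalized reads were put on the log2 scale, and the submitters' processing notes name HTSeq. The normalization method and the annotation are not given in the sources used here. The authors deposited log2 values with a row of mapped totals on a linear scale, which was used for depth only. Low values stepped in whole reads (99.1% to 100% of values under 400 reads within 0.02 reads), so whole reads were recovered with a constant per library.

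Genes above 0 in at least 2 libraries were fitted with limma 3.58.1 (R 4.3.3, mean-variance trend) on the deposited log2 values, with genotype as the only term and no pseudocount. Adjusted p values are Benjamini-Hochberg values over all 16945 genes, with a threshold of 0.05. Differences are means with standard errors over 2 libraries per genotype. Ratios of reads carry exact 95% counting intervals, and groups at 0 were set to 3 reads per library. Normalized reads are the recovered reads on the deposited scale, taken out of log2. Gene models were from GENCODE v44lift37 (55 of 60 members matched), and promoters from RefSeq.

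Full values were given for the 3 highest members of each class and the largest rise and fall in it, for the 3 largest called differences of each other list, and for SLBP and NPAT; any other member named was chosen with its values seen. An item covered by this rule is left out here. The members and lists were chosen with earlier results of these data known. Alternatives were other filters, pseudocounts of 1 and 10, quantile and median scaling, variance options, voom on recovered reads, the replicate number as a block and leaving out each library.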

Additional observations from a re-analysis of the deposited data

How the results depend on the processing

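Depth limits most members: 50 of 60 averaged under 32 reads, and a call there rests on a few reads. Leaving out 1 library gave 0 genes past the limma threshold, 0 histone members higher and 0 lower, where the lone library of a genotype is assumed to vary like the others; unadjusted p values were then under 0.05 in 5257 to 5600 genes and in 18 to 20 members, and the members' median difference was 0.238 to 0.534. Without a filter, 1999 genes passed, with 2 members higher, 3 lower and a median of 0.263. Without a variance trend 2718 genes passed in place of 5037. A filter at the median level kept 3 members, with 0 higher and 2 lower and a median of -0.342. The median was 0.19 with a pseudocount of 10, 0.856 with quantile normalization and 0.67 with median centring, which shifted the median of all genes to 0.184 and the share of calls that were higher from 44.03% to 69.14%; with the filter at the median level that share was 54.59%. The differences of HIST1H2AG (0.276 quantile, 0.046 centred), HIST1H3D (0.088), HIST1H3H (0.107) and HIST1H4H (0.037, all quantile) turned positive, and with 1 library left out those of HIST1H1E (-0.006 to 0.444) and HIST1H3D (-0.684 to 0.007) changed sign, in both without GNA13-deficient replicate 2. Voom on recovered reads gave 7 higher and 6 lower members. With values under 3 reads set to 3 reads, an alternative chosen after seeing the data, 8 were higher and 6 lower. HIST1H2AC, HIST1H2BD, HIST1H2BG and HIST1H4D passed under every alternative that kept all 4 libraries and tested them. HIST1H4D had entered through the libraries labelled GNA13-deficient alone and could only be higher there. No source pairs the replicate numbers; with the replicate block 6616 genes passed, with 12 members higher and 6 lower. Deviations of same-numbered libraries correlated at 0.453 over 8473 genes.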
